A study of Mus musculus with 12 samples.

Results

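Tubulin genes were followed through the differentiation of C2C12 cells, a mouse myoblast line that fuses into multinucleated myotubes in culture. The 10 genes were Tuba1a, Tuba1b, Tuba1c and Tuba4a (alpha-tubulins), Tubb2a, Tubb2b, Tubb3, Tubb5 and Tubb6 (beta-tubulins) and Tubg1 (gamma-tubulin), out of 19057 genes that had a probe. They were taken by symbol, with every probe annotated to them. Of the 10 genes, 9 had a probe, giving 16 probes, and 8 genes passed the filter on dim probes. No probe was annotated to Tuba1c. The single Tubb2a probe lay under the filter, with stage means of 6.55, 6.55, 6.60 and 6.57 (50%, 95%, 24 h, 48 h), so no comparison is given for these 2 genes.

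The 12 arrays came from 4 stages with 3 arrays each: sparse myoblasts (50% confluent), nearly confluent myoblasts (95%), and myotubes taken 24 h or 48 h into differentiation. All groups were unmodified C2C12 cells, a single line. Myoblasts were kept in bovine calf serum, and confluent cells were switched to a medium of horse serum, insulin and transferrin, in which they fuse. The arrays were Illumina bead arrays read with biotin-labelled cRNA, and all levels below are normalized log2 intensities, whose scale ran from 6.32 to 15.25 around a median of 6.68 on every array. Replicates are numbered in the labels without a statement that they were separate cultures, so p-values reflect only how much these arrays scatter, which may be technical, and the number of arrays limits the precision. Levels of different probes are not set against each other, since each probe has its own brightness.

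Microtubules are hollow polymers of alpha- and beta-tubulin dimers, and cells build them from a family of closely related isotypes encoded by separate genes. Gamma-tubulin is not part of the polymer wall and nucleates new microtubules in a ring complex at the centrosome. When myoblasts become myotubes, the radial array around the centrosome is replaced by parallel microtubules along the cell, and nucleation moves to the surface of the nuclei.

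The myotube markers separated myotubes from myoblasts, and the myoblast markers did not mark the myoblasts. Over the 5 measured myotube markers (Myog, Acta1, Ckm, Mylpf and Tnnc2, of 6 listed), the mean level per array lay at 13.79 to 13.96 at 48 h and 12.61 to 13.00 at 24 h, against 6.99 to 7.94 at 95% and 9.08 to 9.56 at 50%. The 95% myoblasts thus showed lower levels of these markers than the 50% myoblasts. Of these markers, 4 fell and 1 did not pass at 95% relative to 50%, and without array 3 of the 95% group, which stands apart as described below, 3 fell and 2 did not pass (95% arrays at 7.51 to 7.94), so confluence comparisons span a difference in these markers as well, and their part in the tubulin results was not tested. Of the 5 listed myoblast markers 3 passed the filter (Myod1, Des and Cdh15), and Myf5 and Pax7 did not. All 3 were higher at 48 h than at 50% (Myod1 by 0.74, Des by 1.59 and Cdh15 by 1.71), and the list mean per array lay at 12.64 to 12.69 at 48 h and 12.10 to 12.22 at 24 h, against 10.76 to 11.38 at 95% and 11.24 to 11.45 at 50%. Array 3 of the 95% group correlated with the other 2 arrays of its group at 0.985 and 0.986 and had a residual SD of 0.196, against 0.0576 to 0.129 on the other 11 arrays, and values without it are given beside the results that involve the 95% group. Of the neuron, leukocyte, adipocyte and osteoblast markers, 3 of 7, 2 of 6, 1 of 5 and 2 of 5 passed the filter, and the mean of each list stayed at 6.64 to 7.69 on all arrays. In the neuron list Nefm, a neurofilament gene, was the exception to flat values, at 9.21 ± 0.30 at 95% and 6.88 ± 0.07 at 48 h (SD, n = 3; 9.05 at 95% without array 3), whereas Syp and Elavl3 lay near the array median.

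Group means were compared with limma over all 11883 genes, and adjusted p-values (Benjamini-Hochberg, 2-sided, threshold 0.05) are over all of these genes. A change at any stage (F-test) was called for 6 of the 8 tubulin genes, or 75.0%, beside 72.2% of all genes tested, so the share of tubulins that changed was close to that of the genome. What set the isotypes apart from each other was direction: Tubb6, Tuba4a, Tubb2b and Tuba1a were higher at 48 h than at 50%, Tubb5 and Tubg1 were lower, and Tuba1b and Tubb3 did not pass.

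**Figure D1:**
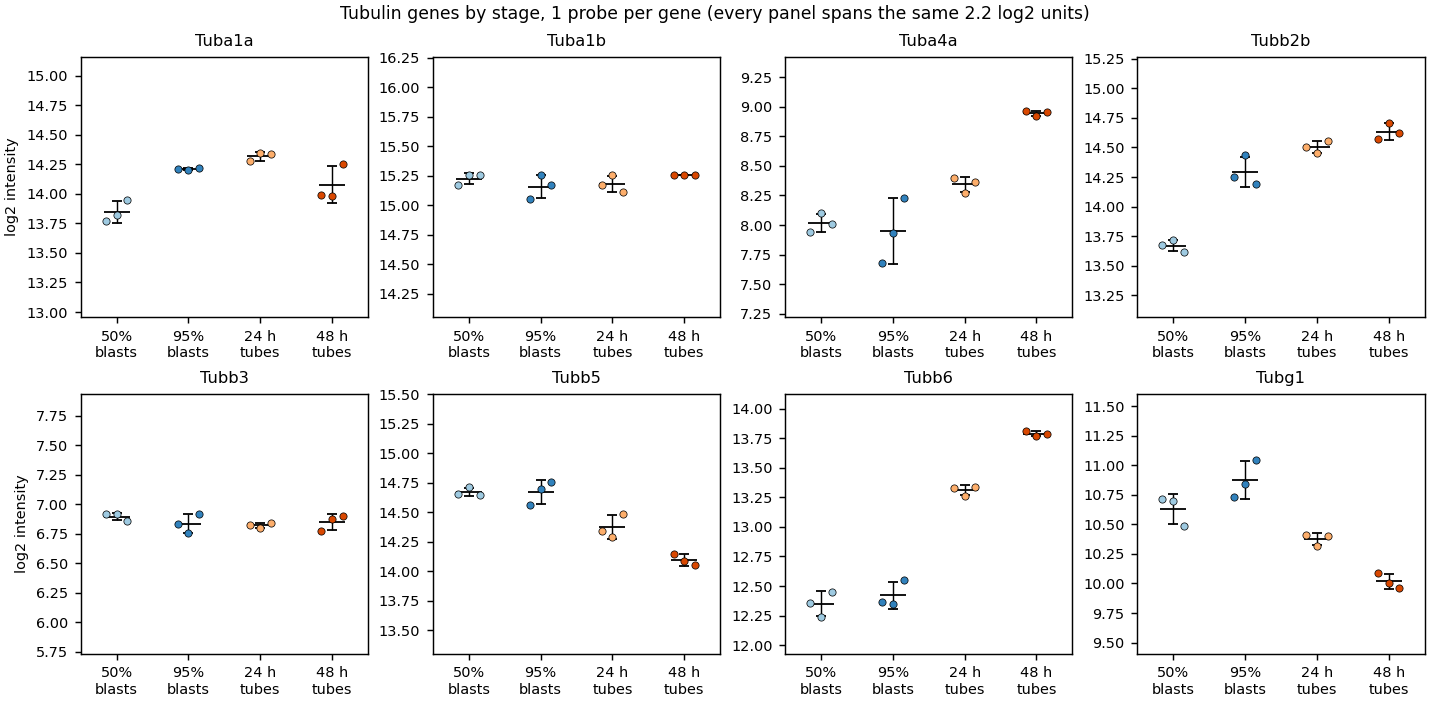
Normalized log2 intensity (y) of 8 tubulin genes at the 4 stages (x). Points are single arrays, and the dash and bar give the mean and SD of 3 arrays. Every panel spans the same range of log2 units around its own level. Tubb6 and Tuba4a step up at 24 h and again at 48 h, Tubb5 and Tubg1 step down, and Tuba1b sits at the top of the scale.

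Of the 2 alpha-tubulins that could be followed, Tuba4a and Tuba1a, Tuba4a changed more at 48 h relative to 50%. Tuba4a is the alpha isotype whose gene encodes no C-terminal tyrosine, the residue that tubulin-tyrosine ligase and the vasohibins add to and remove from other alpha-tubulins. Its probe read 7.94, 8.10 and 8.01 at 50%, 7.68, 7.94 and 8.23 at 95%, 8.40, 8.27 and 8.36 at 24 h, and 8.96, 8.92 and 8.95 at 48 h. The 3 arrays at 48 h lay above all other arrays, and the 3 at 24 h lay above all myoblast arrays. Tuba4a was 1.90-fold higher at 48 h than at 50% (log2 change 0.93, SE 0.11, adjusted p = 1.18e-05). It rose by 0.40 at 24 h relative to 95% (SE 0.11, adjusted p = 0.0123) and by 0.60 at 48 h relative to 24 h (adjusted p = 0.000625). Without array 3 of the 95% group, the highest of that group, the 24 h change was 0.54 and passed, and with only the 24 h and 95% arrays in the fit it was 0.40 and did not (adjusted p = 0.0706). In the order of stages from low to high (95%, 50%, 24 h, 48 h), 95% and 50% did not differ beyond their spread (-0.07, adjusted p = 0.657), although without array 3 that change was -0.21 and passed (adjusted p = 0.0291).

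The promoter of Tuba4a is shown because this alpha gene moved with differentiation, and that of Tubb5 because this beta gene moved the other way. The sequences are the 250 bases before the annotated start site, from RefSeq on GRCm38.p6, written 5′ to 3′ with each E-box (CANNTG) in capitals. The E-box is a motif of several forms, and MyoD-family factors bind some of them with their partners. The Tuba4a window is chr1:75219295-75219544 and the Tubb5 window is chr17:35838302-35838551, both on the minus strand.
Tuba4a: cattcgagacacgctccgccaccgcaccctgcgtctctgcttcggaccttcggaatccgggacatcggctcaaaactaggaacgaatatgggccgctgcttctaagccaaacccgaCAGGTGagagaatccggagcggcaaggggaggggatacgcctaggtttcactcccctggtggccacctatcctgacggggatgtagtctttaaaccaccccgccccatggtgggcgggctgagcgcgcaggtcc
Tubb5: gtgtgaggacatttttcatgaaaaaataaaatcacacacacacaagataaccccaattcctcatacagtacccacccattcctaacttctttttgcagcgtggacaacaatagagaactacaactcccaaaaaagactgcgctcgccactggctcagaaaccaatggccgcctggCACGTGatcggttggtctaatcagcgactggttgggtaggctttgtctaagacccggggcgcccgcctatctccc
Each window holds 1 E-box, CAGGTG in Tuba4a and CACGTG in Tubb5, and neither is CAGCTG, another form of the motif. An E-box of some form stands in 66.2% of all 32851 such windows of the mouse table, so its presence does not distinguish these 2 genes. GGGCGG on either strand was found at 2 places in the Tuba4a window and 0 in the Tubb5 window (32.7% of all windows hold it). CCAAT on either strand was found at 0 places in Tuba4a and 2 in Tubb5 (33.8% of all windows). Windows were read for 7 of the 10 genes and not for Tubb2b, Tubb6 and Tubg1. Windows of 1 chromosome were left out when those of the 10 genes were read, so nothing is said here on the Tubb6 promoter. A match in letters is a description and not a binding site.

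Tuba1a, an alpha isotype abundant in developing neurons, had 2 probes that were both higher at 24 h than at 50% and differed in their second day. The brighter one read 13.77, 13.82 and 13.95 at 50%, 14.21, 14.20 and 14.22 at 95%, 14.28, 14.34 and 14.33 at 24 h, and 13.99, 13.98 and 14.26 at 48 h. The 95% and 24 h arrays lay above all 50% arrays, and the 48 h arrays spread across the 95% level. On this probe Tuba1a rose by 0.36 at 95% relative to 50% (SE 0.07, adjusted p = 0.00205, also 0.36 without array 3 of the 95% group) and did not pass at 24 h relative to 95% (0.11 with and without that array, adjusted p = 0.276 with it). It then fell by 0.24 at 48 h relative to 24 h (adjusted p = 0.0173) and stood 0.23 above the 50% level at 48 h (adjusted p = 0.0162). From low to high the stages ran 50%, 48 h, 95%, 24 h, and 48 h and 95% overlapped and did not pass (adjusted p = 0.15). The 24 h arrays lay above the 95% arrays without overlap, by a difference that did not pass. The dimmer probe gave 0.60 at 48 h relative to 50% (adjusted p = 0.00346 over all probes) and 0.00 at 48 h relative to 24 h (adjusted p = 0.991). The fall on the second day lost the threshold on leaving out the first or the second 48 h array, at -0.20 and -0.19 (adjusted p = 0.0772 and 0.0775), or the second or the third 24 h array, at -0.23 each (0.0562 and 0.0535). The difference between 48 h and 50% lost it on leaving out the third 48 h array, at 0.14 (adjusted p = 0.0642), or the first or the second 50% array, at 0.19 and 0.22 (0.0672 and 0.0512).

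Tuba1b, the alpha isotype that most dividing cells use, could not be followed. Its probe held the highest value of the array on 7 of 12 arrays, including all 3 at 48 h, and its stage means were 15.23, 15.16, 15.18 and 15.25 (50%, 95%, 24 h, 48 h). A rise past this ceiling would not have shown, so the F-test result (adjusted p = 0.439) sets no limit on a rise.

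Among the beta-tubulins, read on the brightest probe of each gene, Tubb6 had the largest rise at 48 h relative to 50% and Tubb5 fell. Tubb6, a divergent beta isotype that is known to be raised in muscle of the dystrophin-deficient mdx mouse, read 12.36, 12.24 and 12.45 at 50%, 12.36, 12.35 and 12.55 at 95%, 13.33, 13.26 and 13.34 at 24 h, and 13.81, 13.77 and 13.78 at 48 h. All myotube arrays lay above all myoblast arrays, and the 48 h arrays lay above the 24 h arrays. Tubb6 was 2.71-fold higher at 48 h than at 50% (log2 change 1.44, SE 0.07, adjusted p = 4.67e-09). Of all genes tested, 3.24% had a larger rise in that comparison. The first day accounted for 0.89 (24 h relative to 95%, adjusted p = 1.25e-06, or 0.95 without array 3 of the 95% group) and the second for 0.48 (adjusted p = 9.82e-05). Tubb6 at 95% relative to 50% did not pass (0.07, adjusted p = 0.438, and 0.01 without array 3 of the 95% group).

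Over the 12 arrays the genes whose pattern was most like that of Tubb6 were Unc45b, a chaperone of myosin (Pearson r = 0.992), Trim54, a ring-finger protein that binds microtubules in striated muscle (r = 0.991), and Fndc5, a membrane protein of muscle (r = 0.990). These are descriptive, since the 12 arrays fall into 4 groups. Their changes were larger than that of Tubb6, at 5.06, 3.12 and 3.75 on the log2 scale at 48 h relative to 50%.

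Tubb5, the beta isotype of most proliferating cells, moved the other way. Its bright probe read 14.66, 14.71 and 14.64 at 50%, 14.56, 14.70 and 14.76 at 95%, 14.34, 14.29 and 14.49 at 24 h, and 14.15, 14.09 and 14.05 at 48 h. All myotube arrays lay below all myoblast arrays, and the 48 h arrays lay below the 24 h arrays. Tubb5 fell by 0.57 at 48 h relative to 50% (SE 0.06, adjusted p = 8.74e-06), which left it 1.49-fold lower. It fell by 0.30 at 24 h relative to 95% (adjusted p = 0.00299, or by 0.26 without array 3 of the 95% group) and by 0.28 at 48 h relative to 24 h (adjusted p = 0.00360), and it did not pass between 95% and 50% (0.00, adjusted p = 0.974, and -0.04 without array 3 of the 95% group). A second Tubb5 probe lay near the median of the arrays, at 6.59 to 6.76, and gave 0.10 at 48 h relative to 50% (adjusted p = 0.128 over all probes). With the mean of both probes Tubb5 still passed at 48 h relative to 50% (-0.24, adjusted p = 0.000285), whereas at 48 h relative to 24 h it gave -0.10 (adjusted p = 0.0599).

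Tubb2b, a beta isotype of neurons and other developing cells, rose first at confluence. It had 6 annotated probes, of which 5 passed the filter, and the brightest read 13.67, 13.72 and 13.62 at 50%, 14.25, 14.44 and 14.19 at 95%, 14.51, 14.46 and 14.56 at 24 h, and 14.57, 14.71 and 14.62 at 48 h. The 50% arrays lay below all others, and those of 24 h lay above those of 95% without overlap. On this probe Tubb2b was 1.95-fold higher at 48 h than at 50% (log2 change 0.97, SE 0.07, adjusted p = 1.21e-07), and 0.63 of that lay between 95% and 50% (adjusted p = 2.81e-05, or 0.68 without array 3 of the 95% group). The 24 h change relative to 95% was 0.21 (adjusted p = 0.0243), and it did not pass when 1 of several arrays was left out: it was 0.16 without the third array of the 95% group (adjusted p = 0.0667), 0.19 without the first of that group (0.0664), and 0.21 and 0.19 without the first or the third of the 24 h group (0.0622 and 0.0887). The 48 h change relative to 24 h was 0.13 and did not pass (adjusted p = 0.146).

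All 5 Tubb2b probes past the filter rose at 48 h relative to 50% and at 95% relative to 50%. In these comparisons 26.5% and 18.9% of the genes past the filter were called up. Over all 45281 probes, dim ones included, the shares were 12.2% and 9.75%. Probe 2, under the filter, gave 0.00 and 0.05 and did not pass. The 5 probes past the filter are annotated to 1 gene, so they are not independent of each other. At 48 h relative to 50% they rose by 1.39, 0.97, 1.15, 1.24 and 1.62 (probes 1, 3, 4, 5 and 6), so the brightest probe gave the smallest rise. At 95% relative to 50% they rose by 1.89, 0.63, 0.58, 1.78 and 1.19, and without array 3 of the 95% group by 2.08, 0.68, 0.73, 1.96 and 1.25, all past the threshold. With the mean of these probes Tubb2b rose by 1.27 and 1.21 in these comparisons. The size of the rise at confluence therefore depends on the probe, and on the second day of differentiation the probes split. Probes 1 and 5, in the order of their identifiers, fell by 0.83 and 0.91 at 48 h relative to 24 h (adjusted p = 0.000478 and 0.000194 over all probes). Probe 1 read 9.48, 9.58 and 9.36 at 50%, 11.58, 11.51 and 10.98 at 95%, 11.70, 11.63 and 11.74 at 24 h, and 10.83, 10.76 and 10.99 at 48 h, so that its 48 h arrays lay between those of 50% and 24 h without overlap. Probe 4 rose by 0.38 over the same interval (adjusted p = 0.0185), with 13.71, 13.79 and 13.65 at 48 h, against 13.39, 13.29 and 13.32 at 24 h. Probes 3 and 6 gave 0.13 and 0.16 and did not pass. The neuron marker Nefm was also higher at 95% than at 50%, by 1.24 on the log2 scale (adjusted p = 2.26e-05, or 1.07 without array 3 of the 95% group), while Syp and Elavl3 did not pass, and the part of such a difference in the Tubb2b result was not tested. Tubb2b and Tubb2a are neighbouring genes of nearly the same coding sequence, and which of their transcripts each probe reads was not tested here, so the level at 48 h relative to 24 h has no single direction for this gene.

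**Figure D2:**
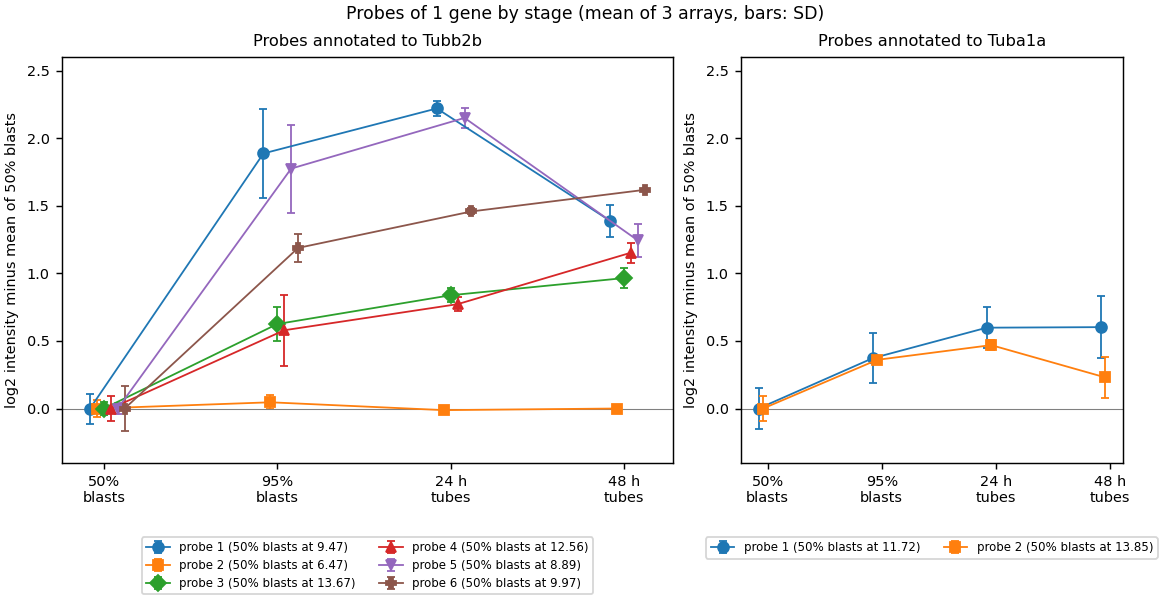
Mean log2 intensity of every probe annotated to Tubb2b and Tuba1a, minus the mean of that probe at 50% confluence (y), by stage (x). Bars are the SD of 3 arrays, and the legend gives each probe's level at 50%. Probes 1 and 5 of Tubb2b peak at 24 h, probes 3, 4 and 6 are highest at 48 h, and probe 2 stays at the bottom of the scale.

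Tubb3, the isotype used as a marker of neurons, stayed near the bottom of the scale. Its values were 6.91, 6.91 and 6.86 at 50%, 6.83, 6.76 and 6.92 at 95%, 6.82, 6.80 and 6.84 at 24 h, and 6.78, 6.88 and 6.90 at 48 h, and the stages overlapped except that the 24 h arrays lay just below those of 50% (-0.07, adjusted p = 0.259). The F-test gave an adjusted p of 0.591, and a change this close to the floor of the arrays may not be measurable.

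Tubg1, which encodes the gamma-tubulin of dividing cells, was highest at 95% and lowest at 48 h. It read 10.71, 10.70 and 10.48 at 50%, 10.73, 10.84 and 11.05 at 95%, 10.41, 10.32 and 10.40 at 24 h, and 10.09, 10.00 and 9.96 at 48 h. All myotube arrays lay below all myoblast arrays. Tubg1 fell by 0.61 at 48 h relative to 50% (SE 0.08, adjusted p = 4.82e-05), a 1.53-fold lower level, by 0.50 at 24 h relative to 95% (adjusted p = 0.000621, or by 0.41 without array 3 of the 95% group) and by 0.36 at 48 h relative to 24 h (adjusted p = 0.00379). Its rise of 0.24 at 95% relative to 50% (adjusted p = 0.0361) lay near the threshold and lost it in several settings. Without the third 95% array it was 0.16 (adjusted p = 0.0931), and without the second 0.26 (0.0597). Leaving out the third 50% array gave 0.17 (0.152), and without the third 24 h array it stayed at 0.24 (0.0506). With the replicate number as a block its adjusted p was 0.0570. It also did not pass without a filter (0.0513), with array weights (0.0844), with only the groups compared (0.124) or with centring (0.0507), while 5 other settings kept it.

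**Figure D3:**
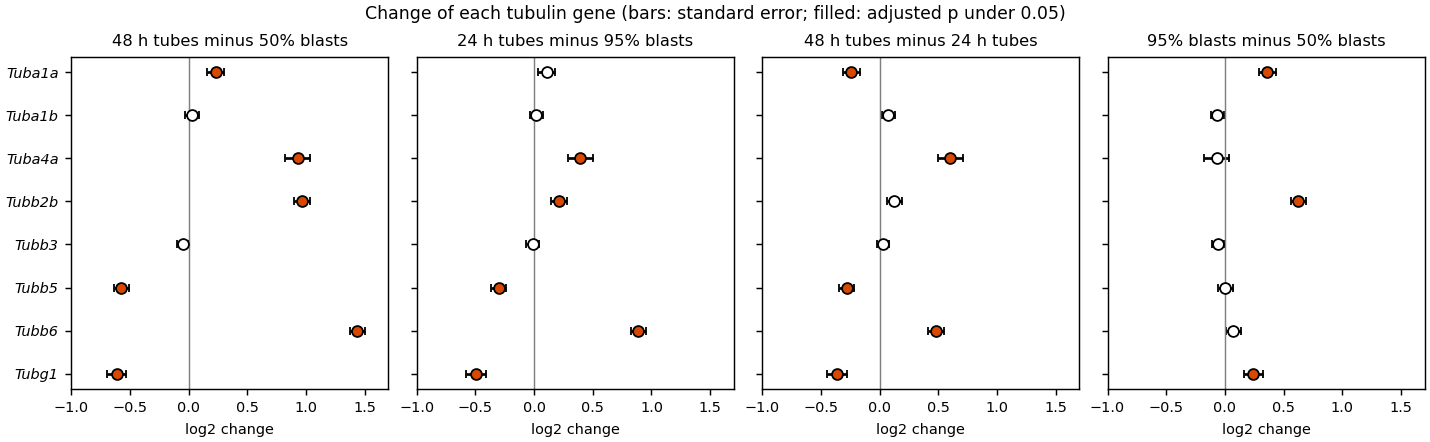
Log2 change (x) of each tubulin gene (y) in 4 comparisons, with standard errors as bars and filled points for an adjusted p under 0.05. Tubb6 and Tuba4a lie right of 0 and Tubb5 and Tubg1 left of it in the 3 panels that involve myotubes, whereas in the panel of 95% against 50% Tubb2b has the largest change, at 0.63.

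Across the family, 48 h myotubes relative to 50% myoblasts had 4 tubulin genes up and 2 down of 8, while 26.5% of all genes were called up and 29.9% down, 56.5% together. In 24 h myotubes relative to 95% myoblasts, 3 rose and 2 fell (15.9% and 21.3% of all genes, 37.2% together), and without array 3 of the 95% group 2 rose and 2 fell (16.9% and 22.3%). In 48 h relative to 24 h myotubes, 2 rose and 3 fell (22.8% and 22.1% of all genes, 44.8% together). In 95% relative to 50% myoblasts, 3 rose and 0 fell (18.9% and 21.0% of all genes, 39.9% together), and without array 3 of the 95% group 2 rose and 1 fell, the last being Tuba4a (23.2% and 25.5%). The stages compared did not overlap for 6, 6, 6 and 3 tubulin genes in the 4 comparisons, beside 65.9%, 45.7%, 62.0% and 43.7% of all genes. Without array 3 of the 95% group the count was 6 at 24 h relative to 95% and 5 at 95% relative to 50% (58.7% and 62.9% of all genes). With 8 genes, these shares do not set the family apart from the rest. The median tubulin change was 0.13, 0.07, 0.05 and 0.04 in these 4 comparisons, and the median over all genes was -0.01, -0.02, -0.02 and 0.00. Without that array the tubulin median at 95% relative to 50% was -0.02. The comparisons share groups, so they are not independent of each other. Neighbours in the order of stages that were not among the 4 comparisons were taken from 24 h relative to 50% and from 48 h relative to 95% in the same fit, where 55.7% of all genes were called in each. At 24 h relative to 50%, Tuba4a stood 0.33 higher (adjusted p = 0.0212) and Tubg1 0.25 lower (log2 change -0.25, adjusted p = 0.0214).

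Whether isotypes moved apart was asked with the log2 difference of 2 isotypes on the same array, each alpha gene over Tuba1b and each beta gene over Tubb5, which gave 5 pairs. Only Tubb6 and Tubb2b over Tubb5 are reported: the ratios over Tuba1b have a denominator at the ceiling of the arrays, and Tubb3 lay at the floor. These ratios compare changes and not amounts, because each probe has its own brightness. Tubb6 over Tubb5 averaged -2.32 ± 0.14 at 50%, -2.25 ± 0.09 at 95%, -1.06 ± 0.08 at 24 h and -0.31 ± 0.03 at 48 h (SD, n = 3), with -2.28 at 95% without array 3. The balance of Tubb6 against Tubb5 on its bright probe was thus 4.03-fold higher at 48 h than at 50% (2.01 on the log2 scale). With the mean of the kept Tubb5 probes that difference was 1.68. On the bright probe there was no overlap between 24 h and 95% or between 48 h and 24 h. An exact permutation test of the F statistic over the 369600 arrangements of the 12 arrays gave p = 0.000455 (adjusted over the 5 pairs, p = 0.000758).

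Tubb2b over Tubb5, on the brightest Tubb2b probe, averaged -1.001 ± 0.021 at 50%, -0.38 ± 0.16 at 95%, 0.13 ± 0.05 at 24 h and 0.54 ± 0.10 at 48 h (SD, n = 3), with -0.29 at 95% without array 3. It was 2.91-fold higher at 48 h than at 50% and the groups of each consecutive step did not overlap (exact permutation p = 6.49e-05, the smallest these arrangements can give, adjusted p = 0.000325). The last step turned round with the mean of the kept probes of both genes, where the ratio was 1.77 ± 0.05 at 48 h, against 1.88 ± 0.02 at 24 h (SD, n = 3), without overlap. The ratio at 48 h relative to 24 h thus has no single direction over these settings, while it stood higher by 1.51 at 48 h relative to 50% with the mean of probes. That mean includes the second Tubb5 probe, which lay near the median of the arrays. With it Tubb5 fell by 0.10 at 48 h relative to 24 h, against 0.28 on its bright probe. The mean of the kept Tubb2b probes gave -0.21 over the same interval and did not pass (limma, adjusted p = 0.0599). The part of the dim Tubb5 probe in the turn of the ratio was not tested.

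**Figure D4:**
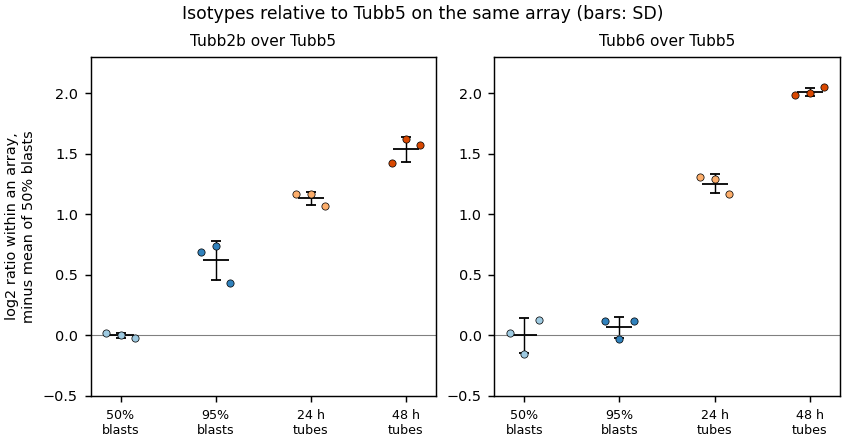
Log2 ratio of Tubb2b (brightest probe) and of Tubb6 over Tubb5 on the same array, minus its mean at 50% confluence (y), by stage (x). Points are single arrays, and the dash and bar are the mean and SD of 3 arrays. Tubb6 over Tubb5 rises by 2.01 and Tubb2b over Tubb5 by 1.54 at 48 h, and the 3 arrays of the 48 h group lie above all others in both panels.

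Genes that nucleate, fold, modify, stabilise, sever and walk along microtubules were read in 8 lists, given for 48 h myotubes relative to 50% myoblasts. This comparison spans confluence and differentiation, so a change in it may lie in either. The percentages of all genes called (26.5% up, 29.9% down) and the median of all genes (-0.01) apply to each list. Of 16 genes of the gamma-tubulin ring complex and augmin, its recruiter to existing microtubules, 13 were measured: 11 fell, 1 rose and 1 did not pass, with a median of -0.41. Haus6 (-1.56) and Haus8 (-1.13), augmin subunits, and Nedd1 (-0.999), which targets the ring complex to the centrosome, had the largest falls, and Mzt2 (0.20) rose. Of 8 measured other tubulins (10 listed), 1 rose and 3 fell, with a median of -0.04. Tube1, an epsilon-tubulin of centrioles, fell by 0.99 and Tuba3b by 0.55, Tubb4b fell by 0.19 (12.99 at 48 h, against 13.18 at 50%), and Tuba3a rose by 0.37, or 0.04 on its other probe.

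Centrosome and nuclear envelope anchors went in both directions, with 4 up, 5 down and 3 not past of 12 measured (median -0.16). Akap6, which anchors centrosomal proteins to the nuclear envelope of muscle cells, was 8.59 at 48 h, against 6.93 at 50%, higher by 1.66 on the log2 scale (SE 0.08, adjusted p = 8.46e-09). Syne1, the nuclear envelope protein nesprin, rose by 0.79, and Akap9, an anchor at centrosome and Golgi, rose by 0.85 with a range of 0.09 to 0.87 over its 4 probes. Cep152 (-1.07) and Cep135 (-0.57), centriole proteins, fell, as did Nin (-0.79), ninein, with a range of -0.79 to -0.07 over 4 probes. The count was 4 up and 6 down without array 3 of the 95% group.

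Tubulin folding factors split, with 6 up, 7 down and 6 not past of 19 measured (median -0.07). Tbcd, a cofactor that assembles the tubulin dimer, rose by 0.87, or by 0.33 on its other probe, and the prefoldins Pfdn5 and Pfdn2 rose by 0.67 and 0.65. The chaperonin subunits Cct6a (-0.81) and Cct3 (-0.43) and prefoldin Pfdn4 (-0.48) fell. The modifying enzymes had 5 up, 5 down and 9 not past of 19 measured (median -0.05). Svbp, the partner of the vasohibins that remove the C-terminal tyrosine of alpha-tubulin, was 12.84 ± 0.07 at 48 h, against 10.19 ± 0.13 at 50% (SD, n = 3). This is a rise of 2.65 on the log2 scale (limma, SE 0.15, adjusted p = 2.50e-08). Vash2, the vasohibin measured in this list, was looked up after the values were seen. It lay near the array median (6.81 at 50%, 6.76 at 48 h) and did not pass (adjusted p = 0.511). Sirt2, a deacetylase, rose by 1.19, and Atat1, the alpha-tubulin acetyltransferase, by 0.96, or 0.13 on its other probe. Tpgs2 (-0.87), Ttll4 (-0.67, and -0.07 at the least on 4 probes) and Ttll12 (-0.49, or -0.16 on its other probe) fell. Ttl, the ligase that restores the tyrosine, was looked up after the values were seen and fell by 0.36 on its brightest probe (adjusted p = 0.00174). Its other probes gave -0.075 and -0.13 and did not pass (adjusted p = 0.355 and 0.117 over all probes).

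Stabilisers and end-binding proteins rose in 11 of 24 measured cases and fell in 5 (median 0.05). Trim54 led with 3.12 (SE 0.10, adjusted p = 1.73e-10). Map4 rose by 2.29 and Map2 by 2.04, structural proteins that bind along the microtubule wall, but the 3 probes of each ranged from 0.12 to 2.29 and from 0.09 to 2.04. Mapre2, a plus-end protein, fell by 0.58, Ckap5, a microtubule polymerase, by 0.48 and Map6 by 0.41, with a range of -0.62 to -0.05 over its 5 probes. Destabilisers and severing enzymes had 6 down and 2 up among 10 measured (median -0.53). Fignl1 (-2.02), a relative of the severing enzymes, Kif2c (-1.72), a depolymerising kinesin of mitosis, and Kif18a (-1.14, or -0.12 on its other probe) fell. Spast, the severing enzyme spastin, rose by 0.49, with a range of -0.10 to 0.49 over 4 probes. Stmn4 rose by 0.31, although at 48 h relative to 24 h it fell by 0.52 (adjusted p = 0.000332).

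The kinesin-1 and dynein list had 12 up and 3 down among 22 measured (median 0.29), or 13 rose and 3 fell without array 3 of the 95% group. Dync1i1, a dynein intermediate chain, was 9.90 at 48 h, against 7.25 at 50% (log2 change 2.65, SE 0.19, adjusted p = 1.42e-07), and was 2.50 on its other probe. Bicd2, an adaptor of dynein, rose by 1.24, or 1.11 on its other probe. Klc1, a kinesin light chain, rose by 1.23, with a range of 0.62 to 1.23 over its 5 probes. Nde1, a dynein regulator, fell by 0.85, Dynll1 by 0.39 and Dctn1 by 0.18.

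**Figure D5:**
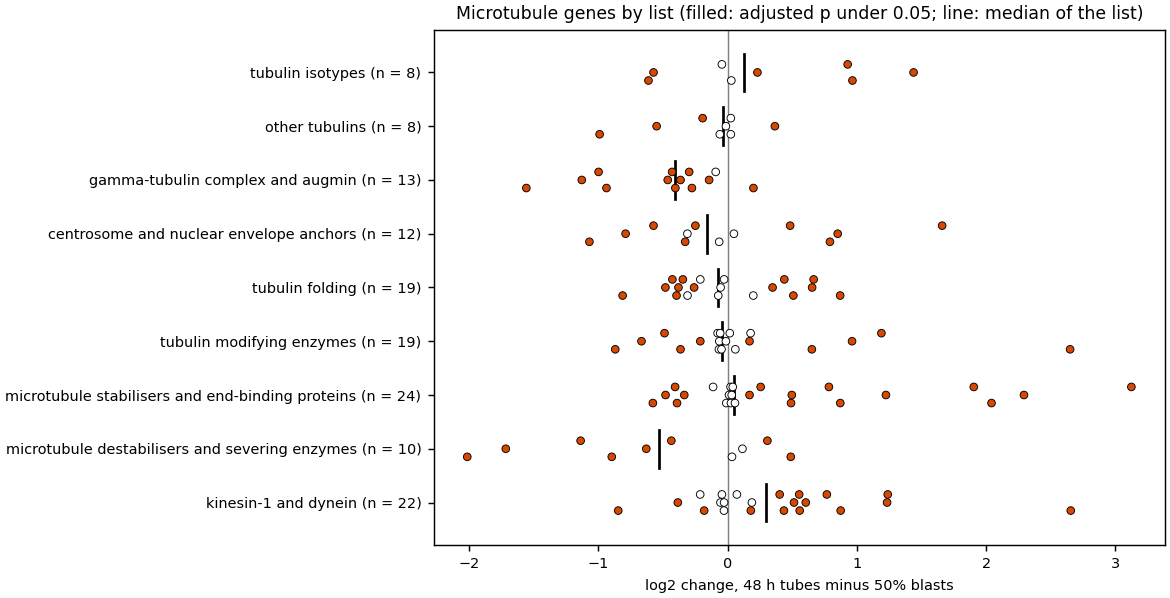
Log2 change at 48 h relative to 50% (x) of single genes in the tubulin family and in 8 lists of microtubule genes (y). Filled points have an adjusted p under 0.05 and the line is the median of the list, which lies at -0.53 for the destabilisers, -0.41 for the gamma-tubulin complex and 0.29 for kinesin-1 and dynein.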

How the data were processed

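Normalized log2 values for 12 arrays were taken from the authors' deposited table of 45281 probes. The submitters' processing notes name RMA and lumi, whose roles and versions are not given in the sources used here. The sorted values of the columns differed by at most 0.003, as quantile normalization leaves them, so levels are relative to the array. Whether the scale is plain log2 or variance-stabilized could not be settled, so changes of dim genes may be understated. The 24 columns of signal before normalization carry names that match no sample and were not used.

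Of the probes, 34885 had 1 gene symbol, 18 several and 10378 none. A probe was kept where every array of at least 1 group exceeded the median level (6.68), and each gene was represented by its kept probe of highest mean, which left 11883 genes. Limma 3.58.1 in R 4.3.3 was fitted over all 12 arrays (8 residual and 3.59 prior degrees of freedom), and probes were also fitted over the whole table. Pairs with Tuba1c and Tubb2a were planned but had no measured gene, which left 5 of 7. The contrasts of 24 h with 50% and 48 h with 95% were added later, to order stages. The procedures were tested on simulated data. Members, lists, ratios and alternatives were chosen with earlier results of these data known. Named genes were all members, the 3 genes most correlated with a member that changed by at least 1 log2 unit between stages, the 3 largest rises and falls of each list, and the markers. Same-numbered arrays deviated together with correlations of -0.09 to 0.33, so the numbers were not taken to pair the samples. Alternatives covered the filter, the probe per gene, the variance model, array weights, the samples fitted, centring, a replicate block and leaving out each array.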

Additional observations from a re-analysis of the deposited data

How the results depend on the processing

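Of 32 tubulin changes (8 genes, 4 comparisons), 24 stayed on the same side of the threshold and, where called, kept their direction under every alternative that gave a value (the 4 Tubb3 changes had none with a level filter of 7.5) and all 12 omissions of an array, and 13 of these were called. Changes of sign among values that never passed were not counted. The only reversal was Tubb2b at 48 h relative to 24 h, which was -0.83 (adjusted p = 0.000216) with the probe of largest variance. The number of tubulin genes called at 24 h relative to 95% was 3 when only the groups compared were fitted (5 in the full fit), where Tuba4a and Tubb2b did not pass, and at 48 h relative to 24 h it was 3 with the mean of the kept probes (5 with 1 probe per gene), where Tuba1a gave -0.12 and Tubb5 -0.10. Leaving out single arrays gave 5 to 6 tubulin genes called at 48 h relative to 50%, 4 to 5 at 24 h relative to 95%, 4 to 5 at 48 h relative to 24 h, 2 to 3 at 95% relative to 50%, and 6 at any stage. With the replicate block these counts were 6, 5, 5, 2 and 6, and of 47 results 1 moved across the threshold, the Tubg1 change at 95% relative to 50%. The ratios of Tubb6 and Tubb2b over Tubb5 passed under the replicate block (adjusted p = 0.00434 each, exact permutation within replicate numbers), with the mean of probes and without each array, as tests of any difference between stages. Centring on expressed probes moved the median of all genes by less than 0.1. For arrays, the signal over background limits Tubb3, Tubb2a and the second Tubb5 probe. The top of the scale limits Tuba1b, the only tubulin gene whose probe reached it. Whether the bright probes of Tubb5, Tubb2b and Tuba1a, which lay below it, understate changes was not tested. All marker, probe, ratio, overlap and list values without array 3 of the 95% group were chosen after seeing the data.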
